A study of Mus musculus with 6 samples.

Results

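The 9 imprinted genes described here are Mest, Nnat, Sgce, Dlk1, Gnas, Peg3, Plagl1, Meg3 and Cdkn1c. They were chosen by name, with earlier results of these data known, and make up 9 of the 52542 gene rows in the plate count tables. Each was followed across 5 classes of mouse islet wells and between 2 operations. Islets came from male Sox9-CreER; tdTomato mice, in which tamoxifen (8 mg, given for 2 weeks from 10 weeks of age) labels cells of the Sox9 lineage. At 12 weeks of age the mice had a sham operation or a partial pancreatectomy (ppx), and islets were taken 4 weeks later. All groups therefore carry the same transgenes and had the same tamoxifen, and Sox9-CreER marks only cells that expressed Sox9 during that treatment.

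Sorted single cells were profiled by MARS-seq, a 3′-end method that scores each captured transcript by a unique molecular identifier (UMI), on 3 sham and 3 ppx plates of 384 wells each. Sham replicate 1 and ppx replicate 1 hold tomato-positive cells, and sham replicate 2 holds positive cells in its first 4 rows and negative cells in the others. Sham replicate 3 and ppx replicates 2 and 3 hold tomato-negative cells. The plates are not tied to individual pancreata in the labels, so p-values measure only the spread between plates. Of 2304 wells, 2115 had at least 500 UMIs and at most 20% mitochondrial UMIs, and the kept wells of a plate held between 1222716 and 1439769 UMIs. No well name was shared between plates.

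Imprinted genes are transcribed mainly from the copy inherited from 1 parent, which is set by DNA methylation laid down in the germ line. Many of them act on growth before birth and on hormone-producing and nervous tissue afterwards, and several are known in the insulin-producing beta cell. UMI counts do not separate the parental copies, so the values below are summed expression and say nothing of imprinting itself.

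A well was called high in a hormone when the hormone held at least 3% (Ins1 and Ins2 together), 2% (Gcg), 0.7% (Sst) or 2% (Ppy) of its UMIs. There were 1000 insulin-only wells, 145 glucagon-only wells and 477 somatostatin-only wells. A further 137 wells were Ppy-high, meaning that pancreatic polypeptide was high and above Gcg and Sst without high insulin. None of the hormones was high in 109 hormone-low wells, and 247 other wells high in several hormones were left out of the classes. In an "-only" class the others of insulin, Gcg and Sst were below their thresholds, but Ppy could be high if the well was not Ppy-high. Most somatostatin-only wells were also high in Ppy, and many Ppy-high wells were also high in Sst. Both classes are split below. Median depth was 4246.5 UMIs in insulin-only, 3387 in glucagon-only, 1561 in somatostatin-only, 3062 in Ppy-high and 968 in hormone-low wells. The classes follow the plates unevenly, since sham replicate 1 and ppx replicate 1 each hold 190 of the 477 somatostatin-only wells.

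The classes were checked against marker lists. The beta list (Ucn3, Mafa and others) held a median of 7.08% of UMIs over the 6 plates in insulin-only wells, against 1.79% (from 1.49% to 1.90%) in somatostatin-only wells. The delta list (Hhex, Ghsr and others) held between 0.491% and 0.771% in somatostatin-only wells and between 0.0324% and 0.354% in Ppy-high wells. The median of the delta list was 0.695% in somatostatin-only and 0.0299% in insulin-only wells. Somatostatin-only wells held more of the beta list than of the delta list, but the lists hold different genes, so their totals are not on a common scale. Somatostatin-only wells also carried the gamma list, which includes Pyy, at a median of 2.79%. That list held 7.50% in Ppy-high wells and 1.21% (from 0.537% to 3.40%) in glucagon-only wells. The gamma marker Aqp3 was at 0 in all 5 classes. Hormone-low wells were of several kinds, with 46 marked by endothelial, 24 by immune and 21 by stromal genes and 18 by none of these lists.

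Mest and Nnat were both highest in somatostatin-only wells, and their promoters are shown for that reason. RefSeq promoters (build GRCm38.p6) were given for 7 of the 9 genes. Each stretch runs from 250 bases before the annotated start to 30 bases after it, on the + strand, at chr6:30737800-30738079 for Mest and chr2:157559828-157560107 for Nnat. Capitals mark TGCCGC on either strand (GCGGCA on the strand shown), the short motif linked to the imprint-keeping protein ZFP57.
Mest: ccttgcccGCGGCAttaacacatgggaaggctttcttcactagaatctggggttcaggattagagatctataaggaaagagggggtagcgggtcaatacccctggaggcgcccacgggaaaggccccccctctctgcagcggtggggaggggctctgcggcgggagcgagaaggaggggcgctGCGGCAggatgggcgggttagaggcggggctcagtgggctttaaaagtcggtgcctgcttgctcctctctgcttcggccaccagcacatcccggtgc
Nnat: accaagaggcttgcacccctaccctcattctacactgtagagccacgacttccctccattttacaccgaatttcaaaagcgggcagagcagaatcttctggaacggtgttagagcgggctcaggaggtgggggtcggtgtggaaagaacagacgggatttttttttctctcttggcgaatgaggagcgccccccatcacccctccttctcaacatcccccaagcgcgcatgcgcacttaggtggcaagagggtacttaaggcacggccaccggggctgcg
The Mest stretch holds the motif 2 times. The 1 match of the Nnat promoter runs past the end of the stretch and is therefore not in capitals. Over the full 300 bases, 11.6% of the 32851 promoters in the table held the motif at least once and 1.53% at least 2 times. Of the 13 promoters of the 7 genes, 5 held it at least once. They belong to Mest, Nnat, Plagl1 and Meg3, and those with 2 matches are both of Mest, whose other promoter, with 8 CG dinucleotides, holds 0. The Mest promoters with 2 matches run from chr6:30737800 and chr6:30737803 and share almost all their bases. Gnas promoters without the motif overlap in the same way. The 13 are therefore not separate sequences, and their count is not comparable with the share of all promoters. The promoters shown each held 17 CG dinucleotides, against a median of 7 over the table. A match of letters is a description and no evidence of binding.

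For each plate and class the UMIs of all wells were added up, and the sums were tested with edgeR's quasi-likelihood test, with plate as a block and p-values adjusted over all genes by Benjamini-Hochberg. Of the 9 imprinted genes, 3 passed the filter on low counts (Gnas, Nnat and Peg3), beside 1018 genes in all. The other 6 were tested in a fit of 20829 genes with no such filter, and Mest also in a fit of the 4 hormone classes alone (1621 genes, added after seeing the data). Between insulin-only and glucagon-only wells, 3 of the 3 were called, and 59% of all genes tested were. The count was 2 of 3 for insulin-only against somatostatin-only wells (47.5% of all genes) and 1 of 3 for insulin-only against Ppy-high wells (44.7%). It was 1 of 3 for each of the other pairs, where 30.9% of all genes were called between glucagon-only and somatostatin-only wells, 15% between glucagon-only and Ppy-high wells and 9.92% between somatostatin-only and Ppy-high wells. Since the classes differ in much of their expression, these counts show nothing particular to imprinted genes. The median log2 fold change of all genes was 0.13 for insulin-only against glucagon-only wells and under 0.1 in size for the other pairs.

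Without the filter all 9 genes could be tested, and 6 of 9 were lower in insulin-only than in somatostatin-only wells (Mest, Nnat, Sgce, Dlk1, Gnas and Meg3), where 4.71% of all genes were called and 2.05% were called lower. The median log2 fold change of the 9 was -2.44, beside 0.18 over all genes in that fit. Of a list of 74 other imprinted genes, 60 were tested there. Of these, 4 were higher and 3 lower in insulin-only wells, with a median of 0.22. The 9 were chosen with earlier results of these data known, so these counts are no test of imprinted genes as a set. Insulin-only against glucagon-only wells gave 4 of 9 (5.97% of all genes), insulin-only against Ppy-high wells 4 of 9 (4.35%) and glucagon-only against somatostatin-only wells 3 of 9 (2.04%). Glucagon-only against Ppy-high wells gave 2 of 9 (0.442%) and somatostatin-only against Ppy-high wells 2 of 9 (0.466%). The counts of glucagon-only and of insulin-only against Ppy-high wells both include Dlk1, whose level in Ppy-high wells is 11 UMIs, 10 of them in 1 well. In the fit of the 4 hormone classes, 4 of the 9 were tested. Insulin-only against glucagon-only wells then gave 3 of 4 (49.9% of all genes), against somatostatin-only wells 3 of 4 (41.9%) and against Ppy-high wells 3 of 4 (39.8%). Glucagon-only against somatostatin-only wells gave 3 of 4 (26.8%), glucagon-only against Ppy-high wells 2 of 4 (14.9%) and somatostatin-only against Ppy-high wells 2 of 4 (10.2%).

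**Figure D1:**
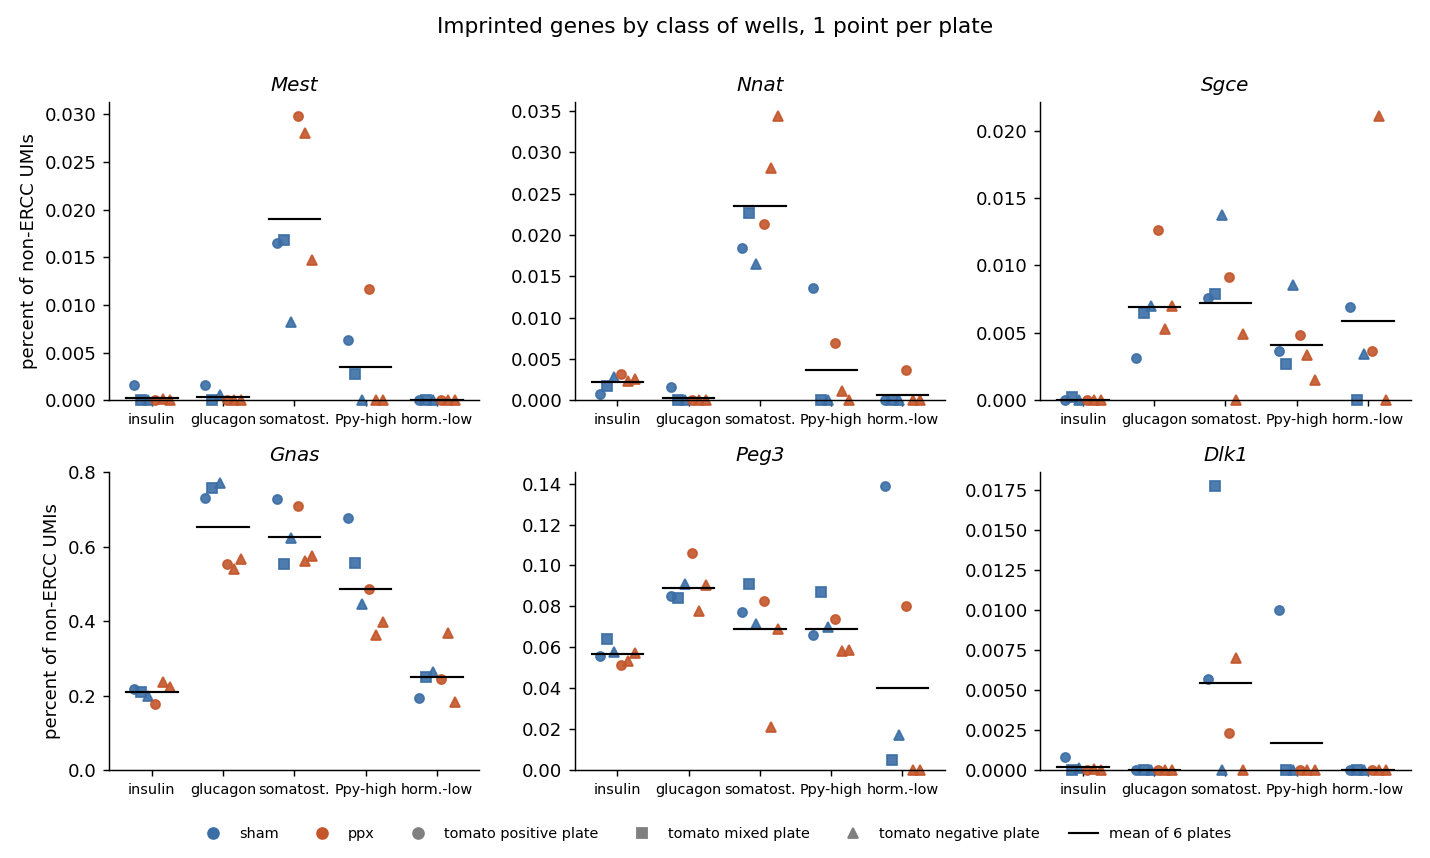
Level of 6 imprinted genes (percent of non-ERCC UMIs, linear axis) in 5 classes of wells, with 1 point per plate, colour for the operation, shape for the tomato label and a bar for the mean of 6 plates. Mest and Nnat stand highest in somatostatin-only wells, Sgce is near 0 in insulin-only wells, and Gnas is lower in insulin-only wells than in the other 3 hormone classes.

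Mest (chr6:30723547-30748465, + strand, GRCm38) encodes a membrane protein of the hydrolase fold family that is paternally expressed and tied to growth. In somatostatin-only wells it held 0.0165%, 0.0168% and 0.00825% of UMIs on sham replicates 1, 2 and 3 and 0.0298%, 0.0281% and 0.0147% on ppx replicates 1, 2 and 3. These are 52, 17 and 3 UMIs on sham plates and 91, 4 and 3 on ppx plates, so the value rests on few molecules outside sham replicates 1 and 2 and ppx replicate 1. In the 1000 insulin-only wells only 3 Mest UMIs were counted among 4481717, and the highest plate there held 0.00162%. Glucagon-only wells held 2 Mest UMIs and hormone-low wells 0 of 154494, which allows up to 0.00194%.

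Every plate had more Mest in somatostatin-only than in insulin-only wells (mean 0.0190% ± 0.00830 against 0.000284% ± 0.000656, SD, n = 6; exact two-sided sign-flip p = 0.03125, the smallest that 6 plates allow). Summed over plates the ratio was 320.4, with an exact 95% counting interval from 108 to 1569. The fit of the 4 hormone classes gave a log2 fold change of -6.44 ± 0.63 (SE) for insulin-only against somatostatin-only wells (edgeR adjusted p = 1.01e-12) and -4.83 ± 0.76 for glucagon-only against somatostatin-only wells (adjusted p = 8.84e-07). Mest was also higher in somatostatin-only than in Ppy-high wells by 1.74 ± 0.44 (adjusted p = 0.00478). Mest passed the filter of this added fit through its somatostatin-only sums, which held 170 UMIs against 25 in Ppy-high wells. These adjusted p-values are therefore no independent support for the differences. The unfiltered fit, which Mest entered without that condition, also called it lower in insulin-only than in somatostatin-only wells.

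Nnat (chr2:157560078-157562522, + strand) encodes neuronatin, a small protein of the endoplasmic reticulum membrane that assists insulin processing in beta cells. Its share in somatostatin-only wells was 0.0184%, 0.0227% and 0.0165% on sham plates and 0.0213%, 0.0281% and 0.0344% on ppx plates. Insulin-only wells held 0.000810%, 0.00178% and 0.00281% on sham plates and 0.00313%, 0.00229% and 0.00259% on ppx plates. All 6 somatostatin-only values lie above every value of any other class, the highest of which was 0.0136% in Ppy-high wells of sham replicate 1. The somatostatin-only values of sham replicate 3 and ppx replicates 2 and 3 come from only 19, 8 and 10 wells and rest on few Nnat molecules. They include the highest values of the class.

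Glucagon-only wells held 1 Nnat UMI among 546483, and hormone-low wells 1 among 154494. Nnat was lower in insulin-only than in somatostatin-only wells by a log2 fold change of -2.87 ± 0.41 (edgeR adjusted p = 3.80e-07) and lower in glucagon-only than in somatostatin-only wells by -6.21 ± 0.81 (adjusted p = 1.62e-07). Nnat passed the filter on low counts through its somatostatin-only sums, so these adjusted p-values are no independent support for the differences. The unfiltered fit also called Nnat lower in insulin-only than in somatostatin-only wells. In the filtered fit Nnat was higher in insulin-only than in glucagon-only wells by 3.34 ± 1.05 (adjusted p = 0.00682), on 5 of 6 plates, and the call was lost without sham replicate 3 (2.72, adjusted p = 0.0552). In insulin-only wells 106 UMIs fell in 62 of 1000 wells, with at most 7 in 1 well.

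The strand used for counting is not given in the sources used here, so reads of overlapping genes on the opposite strand cannot be told apart. Copg2 overlaps Mest and Blcap overlaps Nnat in this way. Copg2 held a mean of 0.00223% in somatostatin-only and 0.00286% in insulin-only wells (unfiltered fit, 0.40 ± 0.46 for insulin-only against somatostatin-only, adjusted p = 0.944). Blcap held 0.00522% and 0.00312% (-0.33 ± 0.42, adjusted p = 0.978). Neither was called in any pair of hormone classes.

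Ppy-high wells held Mest and Nnat at means of 0.00346% ± 0.00475 and 0.00360% ± 0.00559 (SD, n = 6), with a wide spread over plates. The tomato-positive plates account for 24 of 25 Mest UMIs and 25 of 26 Nnat UMIs in this class. Splitting the class by Sst, a step added after seeing the data, put all 25 Mest UMIs in the 67 wells with high Sst (of 240319 UMIs) and 0 in the 70 wells with low Sst (of 268057 UMIs, which allows up to 0.00112%). Nnat gave 25 and 1 UMIs in the same sets of wells. The split follows the plates in part, since 62 of the 67 wells with high Sst and 12 of the 70 with low Sst are on tomato-positive plates.

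On the tomato-positive plates alone, wells with high Sst held 24 Mest and 24 Nnat UMIs among 212780. The 12 wells with low Sst there held 0 and 1 among 42701, and the limit for 0 is then 0.00703%. Glucagon-only against Ppy-high wells gave a Nnat log2 fold change of -4.32 ± 1.07 (edgeR adjusted p = 0.00452), and this call was lost when Ppy-high wells with high Gcg or Sst were left out (-1.43, adjusted p = 0.677).

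Somatostatin-only wells were split by Ppy in the same manner. Mest held 0.0237% (exact 95% interval from 0.0188% to 0.0293%) in the 218 wells with low Ppy and 0.0197% (from 0.0158% to 0.0243%) in the 259 wells with Ppy. Nnat held 0.0171% (from 0.0131% to 0.0220%) and 0.0233% (from 0.0190% to 0.0283%). For both genes the intervals with and without Ppy overlap. Intervals cover counting error only, and the split was not tested over plates.

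**Figure D2:**
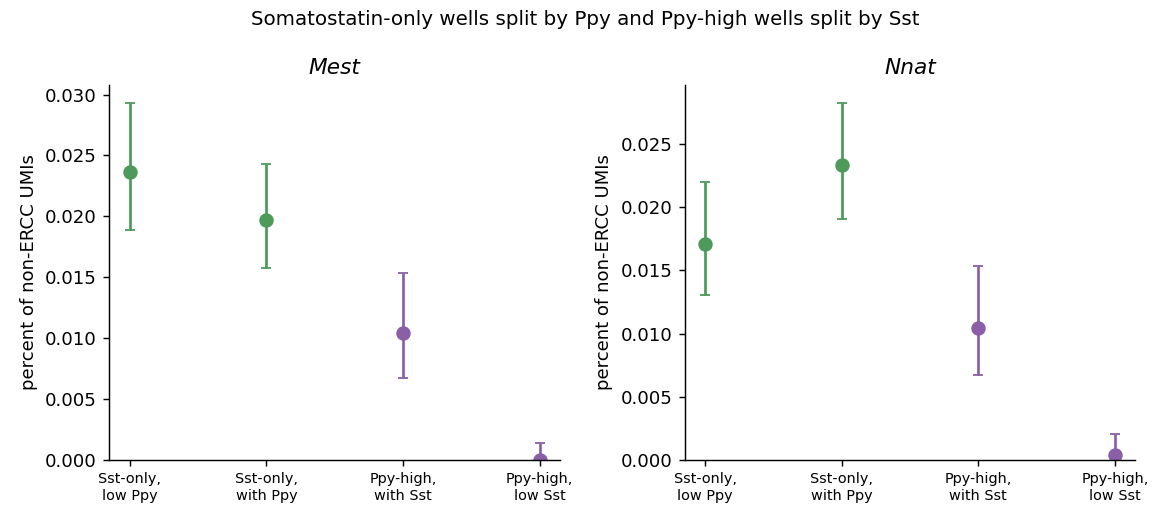
Summed level of Mest and Nnat (percent of non-ERCC UMIs, linear axis) in somatostatin-only wells split by Ppy and in Ppy-high wells split by Sst, with exact 95% counting intervals. The points of both somatostatin-only sets lie above those of Ppy-high wells with high Sst, and Ppy-high wells with low Sst lie at 0 UMIs for Mest and 1 UMI for Nnat.

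Sgce (chr6:4674350-4747207, - strand) encodes epsilon-sarcoglycan, a membrane protein of the dystrophin-linked complex. Only 2 Sgce UMIs were counted in the 1000 insulin-only wells, both on sham replicate 2. Glucagon-only wells held 0.00315%, 0.00645% and 0.00698% on sham plates and 0.0126%, 0.00529% and 0.00696% on ppx plates. Somatostatin-only wells held 0.00762%, 0.00789% and 0.0137% on sham plates and 0.00917%, 0% and 0.00491% on ppx plates. All 6 glucagon-only and all 6 Ppy-high values lie above the highest insulin-only value (0.000237%), and of the somatostatin-only values 5 of 6 do. In the smaller sums of these classes a single UMI already exceeds that value, so this separation says only that those plates held Sgce. Over all plates glucagon-only wells held 36 Sgce UMIs, somatostatin-only wells 66 and Ppy-high wells 21.

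The ratio of glucagon-only to insulin-only wells was 148 over all plates, with an exact 95% counting interval from 38.0 to 1266, and that of somatostatin-only to insulin-only wells was 187 (from 49.6 to 1573). In the unfiltered fit Sgce was lower in insulin-only wells than in glucagon-only wells by -5.69 ± 0.60 (edgeR adjusted p = 1.50e-18), than in somatostatin-only wells by -5.80 ± 0.60 (adjusted p = 1.68e-19) and than in Ppy-high wells by -5.10 ± 0.68 (adjusted p = 2.64e-11). The other 3 hormone classes were not called different from each other. Hormone-low wells held 6 UMIs, of which 3 were in the 21 stromal-marked wells and 2 in the 46 endothelial-marked wells.

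Peg10, a gene of retrotransposon origin that lies beside Sgce on chromosome 6 and shares its imprinted control region, was also low in insulin-only wells. It held 0 of 4481717 UMIs there, 10 UMIs in glucagon-only, 8 in somatostatin-only and 2 in Ppy-high wells. A count of 0 with a floor of 3 counts allows up to 6.69e-05% in insulin-only wells. The unfiltered edgeR fit called Peg10 lower in insulin-only than in glucagon-only wells (adjusted p = 2.56e-07) and than in somatostatin-only wells (adjusted p = 1.55e-04).

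**Figure D3:**
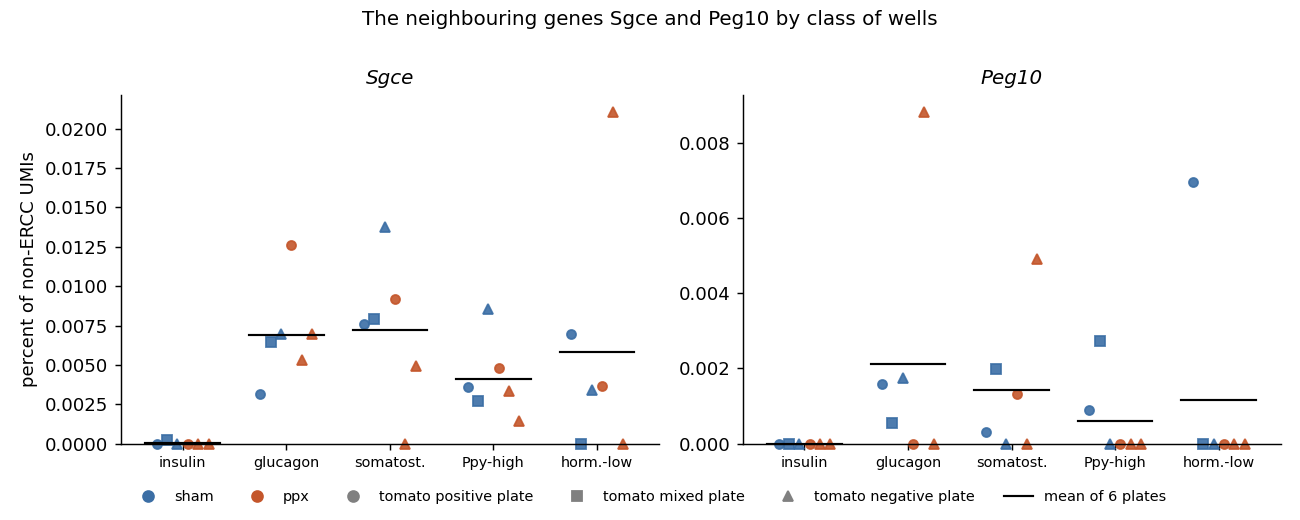
Level of Sgce and of its neighbour Peg10 (percent of non-ERCC UMIs, linear axes of different range) in 5 classes of wells, with 1 point per plate and a bar for the mean of 6 plates. Insulin-only wells lie at or near 0 for both genes, with 2 Sgce UMIs and 0 Peg10 UMIs among 4481717.

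Dlk1 (chr12:109452823-109463336, + strand) encodes a transmembrane relative of the Notch ligands that restrains differentiation. Somatostatin-only wells held 18, 18 and 0 Dlk1 UMIs on sham plates and 7, 1 and 0 on ppx plates. The 44 UMIs came from 19 of 477 wells, with up to 9 in a single well. Insulin-only wells held 3 UMIs and glucagon-only wells 0 of 546483. With the floor of 3 counts put in place of 0, Dlk1 was 10.1-fold higher in somatostatin-only than in glucagon-only wells. The exact 95% counting interval of this ratio starts at 7.88 and has no upper end. Somatostatin-only wells were higher than glucagon-only wells on 4 of 6 plates (exact sign-flip p = 0.125). Ppy-high wells held 11 UMIs on sham replicate 1, and 10 of them were in 1 well.

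Dlk1 was lower in insulin-only than in somatostatin-only wells by -4.47 ± 0.68 in the unfiltered edgeR fit (adjusted p = 6.96e-09). Plate by plate the difference held on 4 of 6 plates, with 1 plate the other way, and the exact sign-flip p was 0.125. The level is therefore carried by few wells on 4 plates.

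Gnas (chr2:174284320-174346744, + strand) encodes the alpha subunit of the stimulatory G protein, which links glucagon and incretin receptors to cyclic AMP. Its locus gives several transcripts with different parental expression, and 24 transcripts with 16 starts are annotated, which these 3′ counts do not separate. In glucagon-only wells it held 0.731%, 0.758% and 0.772% on sham plates and 0.555%, 0.540% and 0.567% on ppx plates. Insulin-only wells held 0.218%, 0.211% and 0.198% on sham plates and 0.178%, 0.236% and 0.222% on ppx plates. No insulin-only value reached the lowest value of the other 3 hormone classes, which was 0.362% in Ppy-high wells.

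Mean levels were 0.654% ± 0.110 in glucagon-only, 0.625% ± 0.0766 in somatostatin-only, 0.487% ± 0.115 in Ppy-high, 0.251% ± 0.0660 in hormone-low and 0.210% ± 0.0201 in insulin-only wells (SD, n = 6). Each neighbouring pair in this order overlaps over plates. Gnas was lower in insulin-only wells than in glucagon-only wells by -1.62 ± 0.15 (edgeR adjusted p = 2.21e-11), than in somatostatin-only wells by -1.46 ± 0.15 (adjusted p = 3.71e-10) and than in Ppy-high wells by -1.33 ± 0.15 (adjusted p = 2.98e-09). Glucagon-only and somatostatin-only wells were not called different (0.16 ± 0.15, adjusted p = 0.463). With hormone genes taken out of the denominator the means were 0.989%, 0.819%, 0.773% and 0.298% in glucagon-only, somatostatin-only, Ppy-high and insulin-only wells and 0.270% in hormone-low wells. The 4 hormone classes kept their order, while hormone-low wells then lay below insulin-only wells.

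Peg3 (chr7:6703892-6730431, - strand) encodes a large zinc finger protein that acts on gene regulation and cell survival. It was detected in 830 of 1000 insulin-only wells and was spread more evenly over the hormone classes than the genes above. Mean levels were 0.0889% ± 0.00964 in glucagon-only, 0.0690% ± 0.0108 in Ppy-high, 0.0687% ± 0.0246 in somatostatin-only and 0.0565% ± 0.00455 in insulin-only wells (SD, n = 6). Glucagon-only values ranged from 0.0776% to 0.106% and insulin-only values from 0.0511% to 0.0643%, with no overlap.

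Peg3 was lower in insulin-only than in glucagon-only wells by -0.58 ± 0.23 (edgeR adjusted p = 0.0263), on 6 of 6 plates. This call was lost with DESeq2 (-0.56, adjusted p = 0.179), without the filter (-0.41, adjusted p = 0.541), and on leaving out any 1 of ppx replicate 2, sham replicate 2 and sham replicate 3 (adjusted p from 0.0510 to 0.0570). It was also lost with no plate block (adjusted p = 0.0544) and with Gcg-high or Sst-high wells out of Ppy-high (adjusted p = 0.0526). The fit of the 4 hormone classes alone gave -0.66 ± 0.11 (adjusted p = 1.53e-06) and called Peg3 lower in insulin-only than in Ppy-high wells too (-0.41 ± 0.12, adjusted p = 0.00404).

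In hormone-low wells 2 of the 3 genes tested, Gnas and Peg3, were lower than the mean of the 4 hormone classes, and 37.9% of all genes were called in that comparison and 21.1% were called lower. The median log2 fold change of all genes was -0.13 there. Gnas was lower by -0.86 ± 0.14 (edgeR adjusted p = 4.26e-06) and Peg3 by -0.97 ± 0.32 (adjusted p = 0.0152), and the Peg3 call was lost without sham replicate 2 (-0.72, adjusted p = 0.0925) or sham replicate 3 (-0.73, adjusted p = 0.128).

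The kinds of hormone-low wells differed in both genes. Of 53 Peg3 UMIs, 46 lay in the 18 unmarked wells, where up to 19 were in 1 well, and 3, 2 and 2 in the endothelial-, immune- and stromal-marked wells. The unmarked wells also held 900 UMIs of the general endocrine list (Chga, Chgb and others) and 2147 of the acinar list, of which 2146 were in 1 well. Gnas held 0.431% in endothelial-marked, 0.295% in stromal-marked, 0.193% in unmarked and 0.104% in immune-marked wells. The exact 95% counting intervals of endothelial-marked (from 0.369% to 0.499%) and immune-marked wells (from 0.0766% to 0.138%) do not overlap. These wells are too few per plate for a test over plates.

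Meg3 (chr12:109541001-109571726, + strand), a long noncoding RNA of the Dlk1 locus, is expressed from the maternal copy. Somatostatin-only wells held 15, 1 and 6 UMIs on sham plates and 5, 0 and 2 on ppx plates, and insulin-only wells 0, 0 and 5 on sham plates and 1, 11 and 20 on ppx plates. Meg3 was lower in insulin-only than in somatostatin-only wells by -2.44 ± 0.54 in the unfiltered edgeR fit (adjusted p = 4.20e-04) and lower than in glucagon-only wells by -1.76 ± 0.58 (adjusted p = 0.0413). Plate values of the classes overlap, and the exact sign-flip p was 0.09375 for the first pair and 0.15625 for the second. The 13 glucagon-only UMIs lay in 5 wells, with 6 of them in 1 well.

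Plagl1 (chr10:13060504-13131694, + strand), a zinc finger factor that slows cell growth, was counted 18 times in somatostatin-only wells, 16 times in insulin-only wells, 5 times in Ppy-high wells and once each in glucagon-only and hormone-low wells. Cdkn1c (chr7:143458339-143461050, - strand) encodes a cyclin-dependent kinase inhibitor and is known to hold back beta cell division. Its counts were 10 UMIs in insulin-only, 3 in somatostatin-only, 2 in Ppy-high, 1 in hormone-low and 0 in glucagon-only wells. As shares of all UMIs of these classes they were 0.000223%, 0.000378%, 0.000393%, 0.000647% and 0%, and no order is read from so few UMIs. The Plagl1 ratio over plates was 6.36 for somatostatin-only against insulin-only wells (exact 95% counting interval from 3.06 to 13.3) and 12.4 against glucagon-only wells (from 1.96 to 517). The unfiltered edgeR fit did not call either of these differences (adjusted p = 0.117 and 0.150), and it called neither gene between any pair of classes.

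To set wells of unequal depth side by side, each well with at least 1000 UMIs was thinned to 1000 UMIs, which left out 12 insulin-only, 2 glucagon-only, 53 somatostatin-only, 6 Ppy-high and 58 hormone-low wells. Mest was then found in 17.9% of 424 somatostatin-only wells (exact 95% interval from 14.4% to 21.9%), against 25.8% unthinned. Insulin-only wells had 0 of 988, which allows a share of up to 0.304%, and glucagon-only wells 0.699% (from 0.0177% to 3.83%). Nnat was found in 17.9% of somatostatin-only, 6.87% of Ppy-high, 1.82% of insulin-only and 0.699% of glucagon-only wells, and unthinned in 24.3%, 13.9%, 6.20% and 0.690%.

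Sgce was seen in 6.29% of glucagon-only, 6.37% of somatostatin-only and 5.34% of Ppy-high wells after thinning and in 0 of 988 insulin-only wells. The corresponding unthinned shares were 22.8%, 12.8%, 13.1% and 0.200%. Gnas was found in 86.2% of insulin-only wells and in 100% of glucagon-only wells, and Peg3 in 42.4% and 58.7%. Meg3, Dlk1, Plagl1 and Cdkn1c were found in at most 3.07% of the wells of any class, and no order is read from them.

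**Figure D4:**
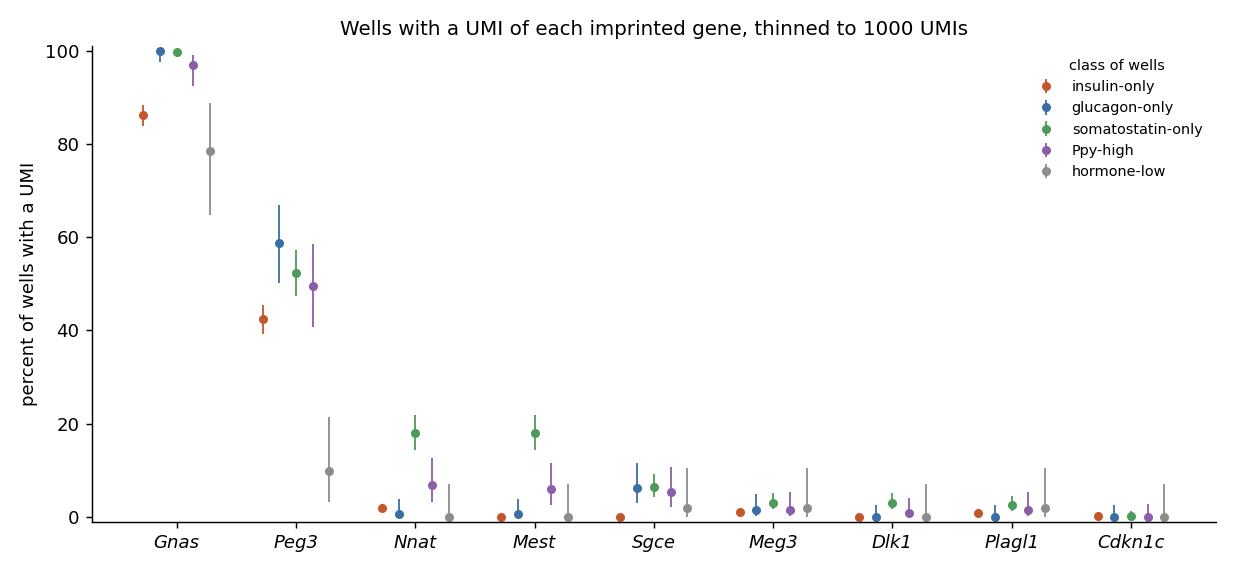
Percent of wells with at least 1 UMI of each imprinted gene after thinning to 1000 UMIs, for 5 classes of wells, with exact 95% binomial intervals that cover counting error only. Mest and Nnat each reach 17.9% in somatostatin-only wells, and Sgce has 0 of 988 insulin-only wells.

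The question of the operation was whether the same genes differ between sham and ppx plates within a class. None of the genes was called. In insulin-only wells 0 of 3 tested were called (0.432% of 8110 genes), in glucagon-only wells 0 of 2 (0.821% of 609 genes), in somatostatin-only wells 0 of 4 (0% of 852 genes), in Ppy-high wells 0 of 2 (0% of 794) and in hormone-low wells 0 of 1 (0% of 198). At an unadjusted p under 0.05, edgeR gave 729, 40, 34, 29 and 2 genes of all those tested in these classes. DESeq2 also called 0 of the imprinted genes in each class. So did the unfiltered fits, which called 0.365%, 0.0579%, 0%, 0.0216% and 0.273% of all genes in the same order of classes.

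Among the 45 pairs of gene and class, those that did not overlap between operations are described here, and no share over all genes was taken. A pair without ties separates with a probability of 0.1 when plate labels are exchanged, and pairs at 0 on all plates cannot separate. Nothing particular to these genes is therefore read from the separations. Gnas in glucagon-only wells was 1 of these pairs. All 3 sham values (0.731% to 0.772%) lay above all 3 ppx values (0.540% to 0.567%), with means of 0.753% ± 0.0209 and 0.554% ± 0.0137 (SD, n = 3). The edgeR log2 fold change was -0.35 ± 0.16 (p = 0.0393, adjusted p = 0.629), and the exact permutation p was 0.1, the smallest 3 against 3 plates allow. It ranged from -0.70 to -0.33 over the alternatives, with adjusted p between 0.498 and 0.994. The ppx plates held only 5, 15 and 7 glucagon-only wells, against 16, 48 and 54 on sham plates. In insulin-only wells Gnas means were 0.212% ± 0.0300 for ppx and 0.209% ± 0.0102 for sham (-0.01 ± 0.13, adjusted p = 0.994). Tested directly, the effect in insulin-only wells exceeded that in glucagon-only wells by 0.45 ± 0.23 for Gnas (adjusted p = 0.738), and 3 of 2700 genes (0.111%), none of them imprinted genes described here, were called in that comparison.

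Meg3 in insulin-only wells also separated, at 0%, 0% and 0.000520% on sham plates and 0.00104%, 0.000901% and 0.00162% on ppx plates (2.18 ± 0.67 in the unfiltered fit, edgeR adjusted p = 0.168; exact permutation p = 0.1). These are 5 UMIs against 32. Meg3 in Ppy-high wells separated in the other direction, with 4 UMIs on sham plates and 2 on ppx plates, at the floor of detection.

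Mest in somatostatin-only wells had means of 0.0138% ± 0.00485 on sham and 0.0242% ± 0.00825 on ppx plates (SD, n = 3), and the plates overlap. The log2 fold change was 0.83 ± 0.28 (edgeR p = 0.00715, adjusted p = 0.975; exact permutation p = 0.3), and 91 of the 98 ppx UMIs came from ppx replicate 1. Nnat there gave 0.24 ± 0.29 (adjusted p = 0.997), and Peg3 in insulin-only wells -0.20 ± 0.14 (adjusted p = 0.745). After thinning, the share of insulin-only wells with a Peg3 UMI was 43.9% ± 8.41 on ppx and 47.3% ± 2.49 on sham plates (exact permutation p = 0.6). Thinned to 500 UMIs the shares were 22.5% ± 1.27 on ppx and 29.5% ± 2.68 on sham plates, and thinned to 2000 UMIs 63.1% ± 0.0625 and 68.6% ± 2.85 (SD, n = 3). The exact permutation p was 0.1 at both of these depths, the smallest 3 against 3 plates allow, so the separation depends on the depth chosen.

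**Figure D5:**
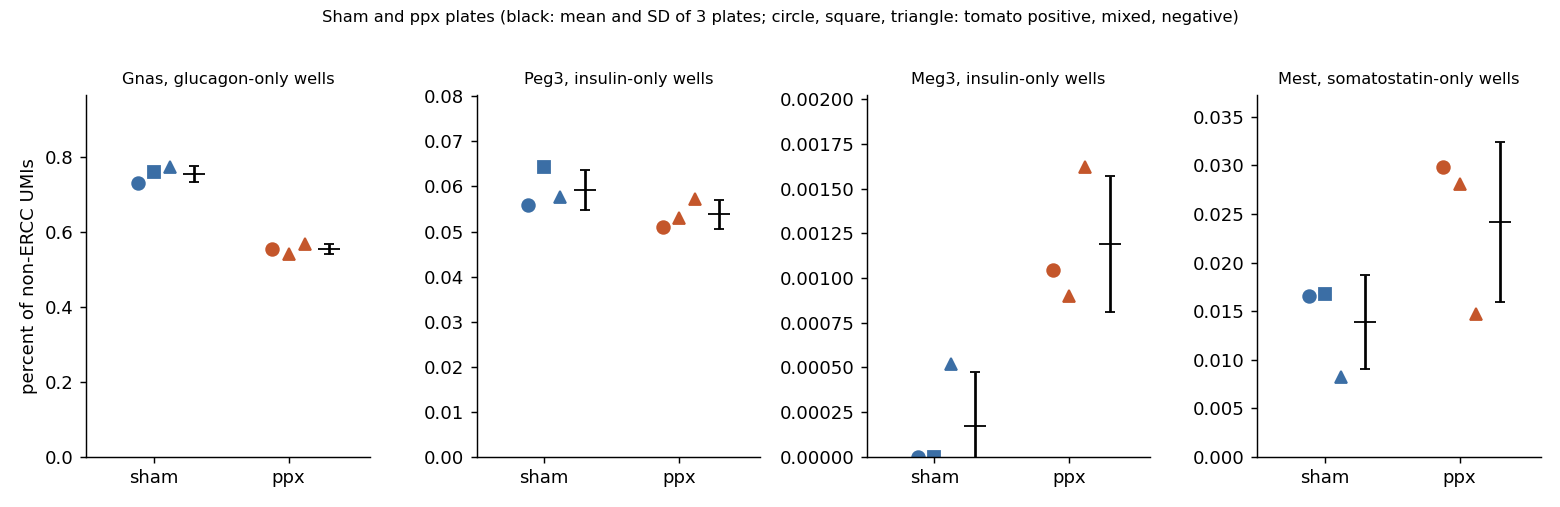
Levels (percent of non-ERCC UMIs, linear axes) on 3 sham and 3 ppx plates for 4 gene and class pairs, with the mean and SD of 3 plates in black beside the points and the lower end of the Meg3 bar cut at 0. Gnas in glucagon-only wells and Meg3 in insulin-only wells do not overlap between operations, while Peg3 and Mest do, and none of the 4 was called.

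By Pearson correlation of log2(CPM + 1) over 25 sums of class and plate with at least 10 wells, the genes most like Nnat were Golim4 (r = 0.893), Frzb (r = 0.802) and Fam46a (r = 0.799). Golim4 (r = 0.831), Arg1 (r = 0.829) and Hnrnph1 (r = 0.793) were most like Mest. Peg3 was closest to Spint2 (r = 0.985), Eif4a2 (r = 0.983) and Aga (r = 0.979), and Gnas to the row named Mir3091 (r = 0.867), Kcnk3 (r = 0.750) and Basp1 (r = 0.750). The sums share plates and depth, 2826 genes were searched, and these values are descriptions.

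A list of 74 other imprinted genes was examined in the same fits. In the filtered fit 6 were tested, and between insulin-only and glucagon-only wells 2 were higher and 3 lower in insulin-only wells, where 59% of all genes were called. Ddc, the enzyme that makes dopamine and serotonin, was higher in insulin-only wells (1.36 ± 0.23, edgeR adjusted p = 5.17e-06), as was the signal peptide peptidase gene H13 (0.79 ± 0.24, adjusted p = 0.00435). Nap1l5 (-2.22 ± 0.29, adjusted p = 4.24e-08), the neuronal growth regulator Ndn (-1.44 ± 0.24, adjusted p = 5.30e-06) and the tetraspanin gene Cd81 (-0.79 ± 0.19, adjusted p = 5.35e-04) were lower. The Cd81 call was lost without the filter.

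Against somatostatin-only wells, insulin-only wells were higher in Ddc (4.55 ± 0.36, edgeR adjusted p = 4.77e-13), in the amino acid transporter gene Slc38a4 (2.06 ± 0.30, adjusted p = 6.56e-07) and in H13, and lower in Ndn and Cd81. The calls of Ndn and Cd81 for this pair were lost without the filter. Nap1l5 set glucagon-only wells apart from somatostatin-only wells, at a mean of 0.0253% ± 0.00700 against 0.00214% ± 0.00192 (3.28 ± 0.43, adjusted p = 1.89e-07). Slc38a4 was likewise higher in glucagon-only than in somatostatin-only wells (2.13 ± 0.34, adjusted p = 4.95e-06) and than in Ppy-high wells (2.03 ± 0.37, adjusted p = 1.16e-04).

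With no filter 60 of the 74 were tested, and 6 were higher and 7 lower in insulin-only than in glucagon-only wells, where 5.97% of all genes were called. The list's median log2 fold change was 0.29, beside 0.30 over all genes. Grb10, an adaptor that dampens insulin receptor signalling, held 0.0136% ± 0.00378 in glucagon-only and 0.00168% ± 0.000599 in insulin-only wells (-2.69 ± 0.36, edgeR adjusted p = 1.45e-11), and the plate values do not overlap. Rasgrf1, an exchange factor for Ras, went the other way at 0.000643% ± 0.000817 and 0.0108% ± 0.00157 (3.61 ± 0.55, adjusted p = 7.02e-09). The growth factor gene Igf2, which lies next to Ins2, held 87 UMIs in insulin-only and 0 in glucagon-only wells.

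For the operation, 1 of 32 other imprinted genes tested in insulin-only wells was called, beside 0.432% of all genes. H13 held 0.0227%, 0.0235% and 0.0176% on sham plates and 0.0209%, 0.0339% and 0.0360% on ppx plates. The log2 fold change was 0.61 ± 0.15 (edgeR adjusted p = 0.0472), while ppx replicate 1 lies within the sham values. The call held under 6 of 14 alternatives, with adjusted p between 0.0102 and 0.951. It was lost with DESeq2, without the filter, with doubled hormone thresholds and on leaving out any plate other than ppx replicate 1.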

How the data were processed

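The authors deposited raw UMI counts as 6 plate tables whose columns are wells. HISAT 0.1.6 and build mm10 are named per the submitters' processing notes. How reads were counted, on which strand and with which annotation is not given in the sources used here. All 92 ERCC rows, which held 3 UMIs, were left out. Wells under 500 UMIs (96) or otherwise over 20% mitochondrial UMIs (93) were dropped, and no doublet caller was run.

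Wells were classed by hormone thresholds, and counts of each class were added up within a plate where at least 5 wells were present. Sums were tested with edgeR 4.0.16 (R 4.3.3, its quasi-likelihood F test after filterByExpr and TMM) with Benjamini-Hochberg adjustment over all genes, and genes under 0.05 were called. Standard errors come from the F statistic. Class contrasts had plate as a block. Operations were compared within a class with no block, because the labels do not say that equal replicate numbers pair the plates. The fits were tested on simulated data. DESeq2 1.42.0, other scaling, filters, thresholds and left-out plates were the alternatives. Levels are percents of non-ERCC UMIs. Exact sign flips over 6 plates covered 54 comparisons and exact permutations 45, both two-sided with unadjusted p. Intervals are exact Clopper-Pearson at 95%, a count of 0 is given a limit of 3 counts, and both cover counting error only.

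Gene positions are from GENCODE on GRCm38, the assembly of mm10. The genes described, the other imprinted genes, the markers and the rule for named genes were chosen with earlier results of these data known. Named are the 9 genes, called genes of the imprinted list and the 3 genes most like each of the 9 with at least 200 UMIs. Peg10, Grb10, Rasgrf1, Igf2, Ano1 and Dcn were picked from the called ones after their values were seen. The own marker list of glucagon-only wells is not reported here.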

Additional observations from a re-analysis of the deposited data

How the results depend on the processing

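Each alternative was compared with the main setting, and no difference called in either of the 2 changed its sign. Differences called in neither changed sign in 25 fold changes, 18 plate differences and 6 shares of wells. Among them were Nnat for insulin-only against Ppy-high wells (1.95 without Gcg-high or Sst-high wells, against -0.98) and Gnas for ppx in insulin-only wells (0.00 with DESeq2, against -0.01). That Nnat difference was called with no plate block (-1.18, edgeR adjusted p = 0.0311). Of 537 fold changes of the 9 genes under alternatives, 520 kept their side of the threshold, 11 lost a call and 6 gained one. Levels moved beyond 1 SD in 13 of 450 cases, mostly with hormone genes out of the denominator. The values of Plagl1, Cdkn1c, Dlk1 and Meg3 rest on few UMIs, and an exact permutation of 3 against 3 plates cannot go below 0.1. The causes of the changed counts below were not tested.

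With no filter on low counts more genes were tested, and those called were 1244 for insulin-only against glucagon-only, 981 against somatostatin-only and 907 against Ppy-high wells, 92 for glucagon-only against Ppy-high wells and 2509 for hormone-low wells. For ppx they were 68 in insulin-only, 8 in glucagon-only, 3 in Ppy-high and 34 in hormone-low wells. Without the tomato-positive plates there were 206 for glucagon-only against somatostatin-only and 83 against Ppy-high wells, and for ppx 59 in insulin-only, 8 in glucagon-only and 4 in somatostatin-only wells. The 4 hormone classes alone (added after seeing the data) gave 242 for glucagon-only and 166 for somatostatin-only against Ppy-high wells. Leaving Gcg-high or Sst-high wells out of Ppy-high gave 99 for glucagon-only against Ppy-high wells, and 10 wells per sum gave 765 for hormone-low wells. DESeq2 called 10, 2 and 0 genes for ppx in insulin-only wells, in glucagon-only wells and for their difference. Halved thresholds gave 53 and 9 in insulin-only and glucagon-only wells, doubled ones 15 in insulin-only wells, and removing hormone genes 2 in glucagon-only wells.

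Leaving out 1 plate at a time gave 97 to 147 genes for glucagon-only and 65 to 102 for somatostatin-only against Ppy-high wells, lowest without sham replicate 1 in both. For ppx it gave 11 to 48 in insulin-only, 2 to 8 in glucagon-only, 0 to 3 in somatostatin-only and 0 to 1 in Ppy-high wells and 0 to 6 for the difference of classes. With the replicate block the counts for ppx were 63 in insulin-only, 3 in glucagon-only, 3 in somatostatin-only and 1 in hormone-low wells, and it changed no call of the 9 genes. Deviations of same-numbered plates correlated at -0.0106 to 0.0761, and only in glucagon-only wells did every plate correlate best with its own number. Sign flips with 5 plates cannot go below 0.0625.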

Other observations

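In hormone-low wells, 1 of 6 other imprinted genes was higher and 2 were lower than the mean of the 4 hormone classes (37.9% of all genes called), and with no filter 6 of 60 were higher and 8 lower (12% of all genes). Cd81 was higher (1.74 ± 0.18, edgeR adjusted p = 6.23e-10; 0.92 ± 0.24 with no filter, adjusted p = 0.00275), at 0.109% ± 0.0553 against 0.0204% ± 0.00267 in insulin-only wells (SD, n = 6). Ndn was lower (-3.92 ± 0.76, adjusted p = 7.57e-05), with 1 UMI among 154494. In the unfiltered fit Ano1 (5.33 ± 0.77, adjusted p = 2.99e-10) and the matrix gene Dcn (5.64 ± 0.64, adjusted p = 9.74e-17) were higher. All 32 Dcn UMIs of hormone-low wells were on ppx replicate 1, so its call for ppx in these wells (6.53 ± 1.44, adjusted p = 0.00271) rests on 1 plate.

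The 247 wells high in several hormones, which belong to no class above, held 69 Mest and 110 Nnat UMIs among 1615952, or 0.00427% and 0.00681%. Dlk1 held 30 UMIs there, in 12 wells. Sgce held 45 UMIs (0.00278%).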
